A study of Oryctolagus cuniculus with 54 samples.

Results

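Rabbit lungs collected on the 29th day of gestation (F29) were compared with lungs collected on the 28th day (F28), both within the saccular phase of lung development. The comparison held 6 of the 54 libraries of the series, 3 F29 and 3 F28, each from a different animal and all from the first of 3 sequencing runs. The members were chosen by the time point and run that the sample labels give. The series held 45 New Zealand White rabbits, of which 36 were fetal or term animals of normal lung development and 9 were preterm pups.

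The animals of both groups were fetuses of the same strain, taken by C-section, with no treatment given in the labels, and the right lung was used for RNA. The lungs were collected immediately after delivery, kept in a preservative in the cold and homogenized later. The other groups compared below were fetuses of days 25 and 27 (F25 and F27), also taken by C-section, and naturally born pups. These pups were born on day 31 and collected right after birth (T31) or 4 days later, on day 35 (T35). T35 pups were kept with their mothers in room air. The remaining groups entered only the scaling, the counts over all 54 libraries or an alternative fit. They were fetuses of days 20 and 23 (F20 and F23) and term pups of days 37 and 42 (T37 and T42). Preterm pups, taken by C-section on day 28 and kept in room air, were collected on days 28, 31 and 35 (P0, P3 and P7). F28 animals are called F28_2, F28_7 and F28_9, and F29 animals F29_2, F29_7 and F29_11. Whole-lung RNA pools every cell type, so that fewer cells of a type and less RNA per cell cannot be told apart. The files list genes by Ensembl identifier and do not pair them with names, so that no gene is named by its function and the lung label was not checked against marker genes.

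In the saccular phase the terminal airways widen into thin-walled sacs and the mesenchyme between them thins while capillaries come to lie close to the epithelium. Type II alveolar epithelial cells begin to store and secrete surfactant, the lipid and protein film that keeps airspaces open at birth, and flat type I cells form the gas exchange surface. These changes prepare the lung for breathing air.

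The 6 libraries held between 5862298 and 6610616 counts, within the range of 5771693 to 8073755 over all 54 libraries. Between 15650 and 15915 genes had at least 1 count in each, and the 10 most abundant genes took 9.48% to 12.9% of the counts. Levels are given as CPM, the count of a gene relative to the library total, scaled by TMM factors (trimmed mean of M-values, which correct for differences in library composition) over all 54 libraries. No pair among the 6 libraries was identical. Correlations of log2 levels across the 14600 genes tested lay between 0.974 and 0.98 for every pair of animals.

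The first question was which genes changed over this single day of gestation. Of 14600 genes tested, 1 gene, ENSOCUG00000007315, was called (0.00685% of genes), and it was higher at F29. A call came from the quasi-likelihood test of edgeR over the 18 libraries of run 1, and needed more than a 2-fold difference in either direction together with an adjusted p no higher than 0.05. No gene was called lower. At an unadjusted p under 0.05, edgeR gave 640 genes, 4.38% of those tested, 344 of them higher (2.36%) and 296 lower (2.03%) at F29. With only the 6 F28 and F29 libraries fitted, edgeR gave 966 of 13230 genes at that threshold.

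ENSOCUG00000007315 was at 3.55, 4.19 and 2.34 CPM in F28_2, F28_7 and F28_9, and at 9.46, 11.5 and 10.1 CPM in F29_2, F29_7 and F29_11. Every F29 value was above every F28 value. The log2 fold change was 1.62 ± 0.238 (SE), with an edgeR adjusted p of 0.0278. The raw counts behind these levels were 17 to 29 in the F28 libraries and 67 to 81 in the F29 libraries.

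The F28 libraries also lay under the F27 libraries for this gene. Its mean level was 13.4 ± 2.41 CPM (SD, n = 3) at F25, 10.5 ± 0.226 at F27, 3.36 ± 0.938 at F28, 10.4 ± 1.03 at F29, 6.80 ± 1.06 in run 1 at T31 and 9.24 ± 1.45 in run 1 at T35. In the same fit the log2 fold change of F28 over F27 was -1.65 ± 0.238 (SE; edgeR adjusted p = 0.0207). This comparison and that of F29 with F28 use the same 3 F28 libraries and are not independent. The level was thus lower at F28 than at the day of collection on either side.

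**Figure D1:**
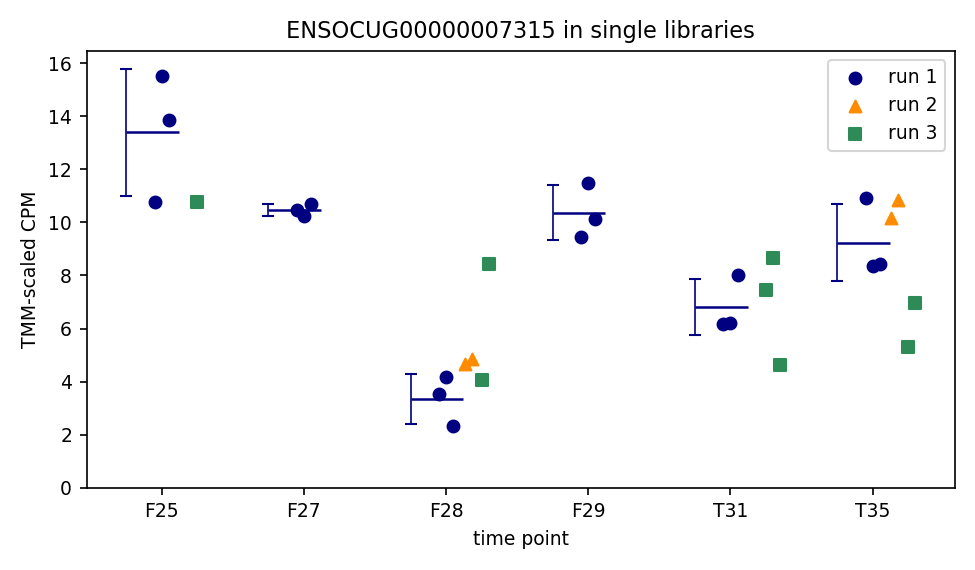
TMM-scaled CPM of ENSOCUG00000007315 (vertical axis) at 6 time points (horizontal axis), 1 point per library, with circles for run 1, triangles for run 2 and squares for run 3. Horizontal lines and bars are the mean ± SD of the 3 run 1 libraries, and points of runs 2 and 3 are repeat libraries or, at T31, further animals. The run 1 libraries of F28 lie between 2.34 and 4.19, under those of every other time point shown.

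The F28 animals had been sequenced again in runs 2 and 3. There ENSOCUG00000007315 was at 4.68 and 4.07 CPM in F28_2, at 8.44 CPM in F28_7 and at 4.85 CPM in F28_9. All 4 repeat libraries were below the lowest F29 value of 9.46 CPM, which came from run 1. The F28_7 repeat was nearer to that value than to any other F28 library. No F29 animal was sequenced in another run, so that this comparison crosses runs.

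The call depended on single animals. Without F28_7 the adjusted p of ENSOCUG00000007315 in edgeR was 0.0218. Without F28_2 it was 0.203, without F28_9 0.173, without F29_2 0.0892, without F29_7 0.256 and without F29_11 0.128. The log2 fold change stayed between 1.4 and 1.8.

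When only the 6 F28 and F29 libraries were fitted, 4 genes were called, 2 in each direction, and ENSOCUG00000007315 was not among them (edgeR adjusted p = 0.11), although its log2 fold change was again 1.62. The 3 identifiers given next are taken from these 4 calls. All 4 had an adjusted p of 0.999 in the fit over 18 libraries.

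ENSOCUG00000021476 was at 1.42, 2.31 and 0.688 CPM in the F28 libraries and at 10.7, 7.09 and 11.9 CPM in the F29 libraries. The F27 libraries ranged from 0.276 to 6.03 CPM and the T31 libraries of run 1 from 1.97 to 7.58 CPM, so that the animals of the neighbouring time points spread more widely than those of either day. ENSOCUG00000016573 was at 3.55, 3.61 and 4.54 CPM at F28 and at 0.282, 0.425 and 0.277 CPM at F29. Its F27 libraries ranged from 0.276 to 3.98 CPM and its T31 libraries from 0.704 to 5.78 CPM. In both of these groups at least 1 animal lay near the F28 level and at least 1 lay under 1 CPM.

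ENSOCUG00000012369 was at 25.3, 32.6 and 21.3 CPM at F28 and at 9.46, 9.22 and 9.29 CPM at F29. At F27 it was at 13.5, 7.68 and 10.8 CPM, and at T31 in run 1 at 1.88, 4.00 and 14.5 CPM. In the 4 repeat libraries of the F28 animals it lay between 37.1 and 64.3 CPM, above all 3 run 1 libraries of F28. The repeat libraries of F25_13, T35_6 and T35_11 also lay above the run 1 libraries of the same animals. No F29 animal was repeated, so that F28 repeats and F29 libraries cannot be compared within a run. The groups did not overlap for any of these 3 genes within the 6 libraries, but the same libraries had chosen the genes. Of all genes tested, 6.57% lay higher and 6.5% lower at F29 without overlap.

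The size of change that the libraries could resolve depended on the level of a gene. A log2 fold change beyond 2-fold, without a test, was found for 1161 genes (7.95%), and 854 of these averaged under 1 CPM. Among the 1908 genes at 100 CPM or more, 12 (0.629%) were past 2-fold, and the median absolute log2 fold change was 0.0883. Among the 2736 genes under 1 CPM it was 0.656.

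The limma-voom 95% interval of the fold change lay wholly within 2-fold in either direction for 8478 genes, 58.1% of those tested. This share was 0% under 1 CPM, 36% from 1 to 10 CPM, 89.9% from 10 to 100 CPM and 95.7% at 100 CPM or more. The interval of every gene under 1 CPM thus reached past 2-fold on at least 1 side. The intervals are those of single genes and are not adjusted for the number of genes.

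The 50 most abundant genes took 18.5% to 22.04% of the counts of a library. None was past 2-fold, and the interval lay within 2-fold for 46 of them. By edgeR, 0 of the 50 passed the adjusted p and 2 had an unadjusted p under 0.05, 1 higher and 1 lower at F29.

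**Figure D2:**
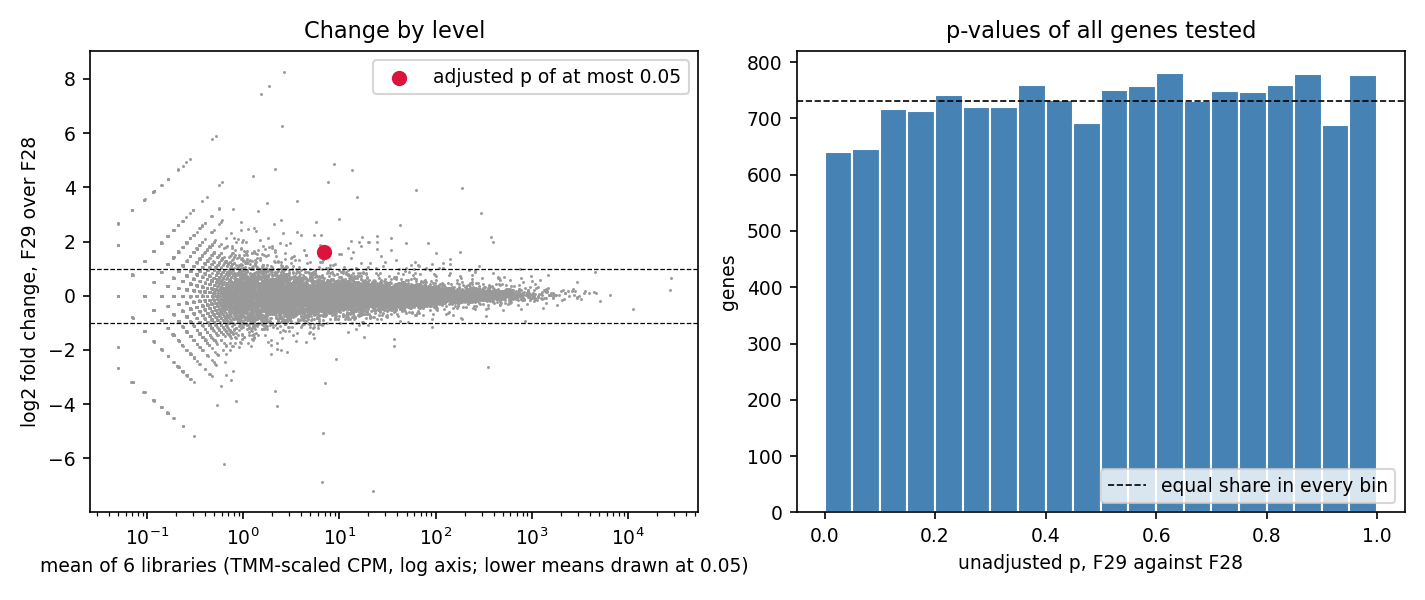
Left, log2 fold change of F29 over F28 (vertical axis) against the mean TMM-scaled CPM of the 6 libraries (horizontal log axis), 1 grey point per gene and dashed lines at 2-fold; the red point is the 1 gene past the adjusted p. Right, number of genes (vertical axis) by unadjusted edgeR p in bins of equal width (horizontal axis), where the lowest bin, with 640 genes, lies under the dashed line of an equal share.

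Whether the groups overlapped was counted next, as a description. With no difference between the days, 3 and 3 exchangeable values would separate in either direction with a probability of 0.1. The 3 F29 values lay above all 3 F28 values for 959 genes (6.57%) and below them for 949 genes (6.5%) on the TMM scale. A further requirement of more than 2-fold left 189 higher (1.29%) and 216 lower genes (1.48%). On total counts alone the numbers without that requirement were 634 and 1349, so that the share of higher genes moved from 50.3% to 32% with the scaling. The median log2 fold change of all genes was -0.0037 with TMM and -0.061 on total counts.

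The distance between lungs of different days overlapped with that between lungs of the same day. The root mean square log2 difference per gene averaged 0.689 over the 9 pairs of animals from different days (range 0.655 to 0.709). It averaged 0.679 over the 3 pairs within F28 and 0.665 over the 3 pairs within F29. The ranges within the days were 0.647 to 0.709 and 0.634 to 0.682.

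The neighbouring steps in development were read from the same fit. Genes called numbered 1 for F27 against F25, 1 for F28 against F27, 6 for T31 against F29 and 184 for T35 against T31. The wider contrasts of T31 against F27 and of T35 against F25 gave 800 and 2137 calls. The share of genes at an unadjusted p under 0.05 was 9.6%, 8.45%, 14.2% and 15.9% for the 4 steps, against 4.38% for F29 over F28. Neighbouring steps share libraries, and the differences between these counts were not tested.

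A small shift over many genes may fall below the test of single genes, so the genes that differ across the whole window from F27 to T31 were followed over this day. They were called between T31 and F27 in the 12 run 1 libraries that hold neither F28 nor F29 animals. T31 and T35 pups were born naturally whereas the fetuses were taken by C-section, so that age and birth cannot be told apart in these lists. This gave 297 genes higher at T31 (2.1% of 14130) and 319 genes lower (2.26%).

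Of the 297 genes higher at T31, 229 (77.1%) had a log2 fold change above 0 from F28 to F29, with a median of 0.292. Of the 319 genes lower at T31, 48 (15%) were above 0, with a median of -0.404. Over all 14600 genes 49.2% were above 0, with a median of -0.0037. By edgeR 0 genes of either list passed the adjusted p between F29 and F28, which 1 of all 14600 genes passed. At an unadjusted edgeR p under 0.05, 41 of the 297 (13.8%) were higher at F29 and 3 lower. Of the 319, 35 (11%) were lower at F29 and 0 higher. Over all genes tested, 2.36% were higher and 2.03% lower at that threshold. The 12 libraries that chose the lists also enter the spread used by this test. A call in them favours genes of small spread, so that these shares are a description only.

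The mean log2 CPM of the genes higher at T31 was 3.79, 3.73 and 3.75 in F28_2, F28_7 and F28_9, and 4.04, 4.21 and 3.93 in F29_2, F29_7 and F29_11. On a scale where the F27 mean is 0 and the T31 mean is 1, this placed the F28 animals at 0.401, 0.367 and 0.376 and the F29 animals at 0.545, 0.644 and 0.48. Every F29 animal was nearer to T31 than every F28 animal.

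The genes lower at T31 gave positions of 0.402, 0.335 and 0.326 for F28 and of 0.622, 0.597 and 0.47 for F29. Their mean log2 CPM changed by -0.374 from F28 to F29, and that of the genes higher at T31 by 0.302. F29_11 was the F29 animal nearest to F28 on both lists. The T35 animals lay at 0.913, 0.976 and 0.988 on the genes higher at T31. On the genes lower at T31 they lay at 0.312, 0.51 and 0.907, so that this position did not keep rising with age. An exact permutation test of 3 against 3 animals that counts both directions cannot go below p = 0.1, and no p is given for these means.

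**Figure D3:**
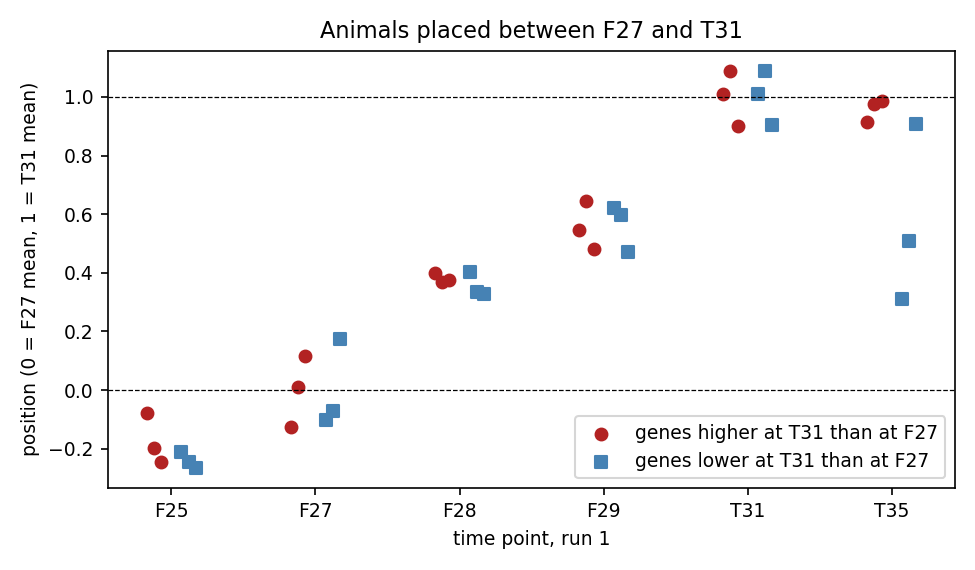
Position of each run 1 animal (vertical axis, 0 = F27 mean, 1 = T31 mean) by time point (horizontal axis), from the mean log2 CPM of 297 genes higher at T31 (circles) and 319 genes lower at T31 (squares). F27 and T31 chose the genes and set the scale; the F28 animals lie between 0.326 and 0.402 and the F29 animals between 0.47 and 0.644.

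Genes called between T35 and F25 in the same 12 libraries, 1085 higher (7.68%) and 858 lower (6.07%), gave the same order of the days. On a scale where the F25 mean is 0 and the T35 mean is 1, the F28 animals lay between 0.495 and 0.531 for the higher genes and the F29 animals between 0.617 and 0.688. For the lower genes the ranges were 0.46 to 0.482 and 0.573 to 0.655. These lists share libraries and genes with those of T31 against F27.

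Differences between animals of the same day were far larger for a small number of genes. A gap of at least 8-fold between neighbouring values among the 6 animals, with at least 10 CPM above it, was found in 41 of 14600 genes. In 0 of the 41 were the animals above the gap the 3 animals of a single day. By edgeR 0 of the 41 passed the adjusted p, against 1 of all 14600. Few of the possible sets of high animals match a day, and a gap within a day widens the spread that the test uses. These counts are therefore a description only. The genes fell into 22 different sets of high animals. The genes below are named for this pattern, after their values were seen.

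The set met most often, with 9 genes, had F28_9, F29_7 and F29_11 above the gap. Their identifiers lie close together, from ENSOCUG00000029086 to ENSOCUG00000029115. Over all 54 libraries of the series the same libraries lay high for all 9 genes. The genes thus did not vary separately and form a single division of the animals, whose cause was not tested. ENSOCUG00000029112, a gene of this set, was at 21.2 and 14 CPM in F28_2 and F28_7, at 20.8 CPM in F29_2, and at 3213, 2607 and 2901 CPM in F28_9, F29_7 and F29_11. ENSOCUG00000032540 showed the opposite pattern, at 1688, 1634 and 1718 CPM in F28_2, F28_7 and F29_2 and at 3.99, 5.39 and 4.85 CPM in the other 3 animals. Each day held animals on both sides.

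The most abundant gene of the 6 libraries, ENSOCUG00000029084, divided these 6 animals in the same way with a smaller gap. It was at 10260, 10290 and 7941 CPM in F28_2, F28_7 and F29_2, and at 43520, 49850 and 44390 CPM in F28_9, F29_7 and F29_11. It took 0.906% to 1.21% of the counts in the first 3 animals and 4.78% to 5.37% in the others. Its log2 fold change between the days was 0.67 ± 0.853 (SE), with an edgeR adjusted p of 0.999. Over all 54 libraries its division was less clear. The largest gap on the log scale ran from 27400 to 36390 CPM, with 24 animals above it. T31_18 was among these, at 36390 CPM, but at 60.1 CPM for ENSOCUG00000029112, on the low side of that gene.

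**Figure D4:**
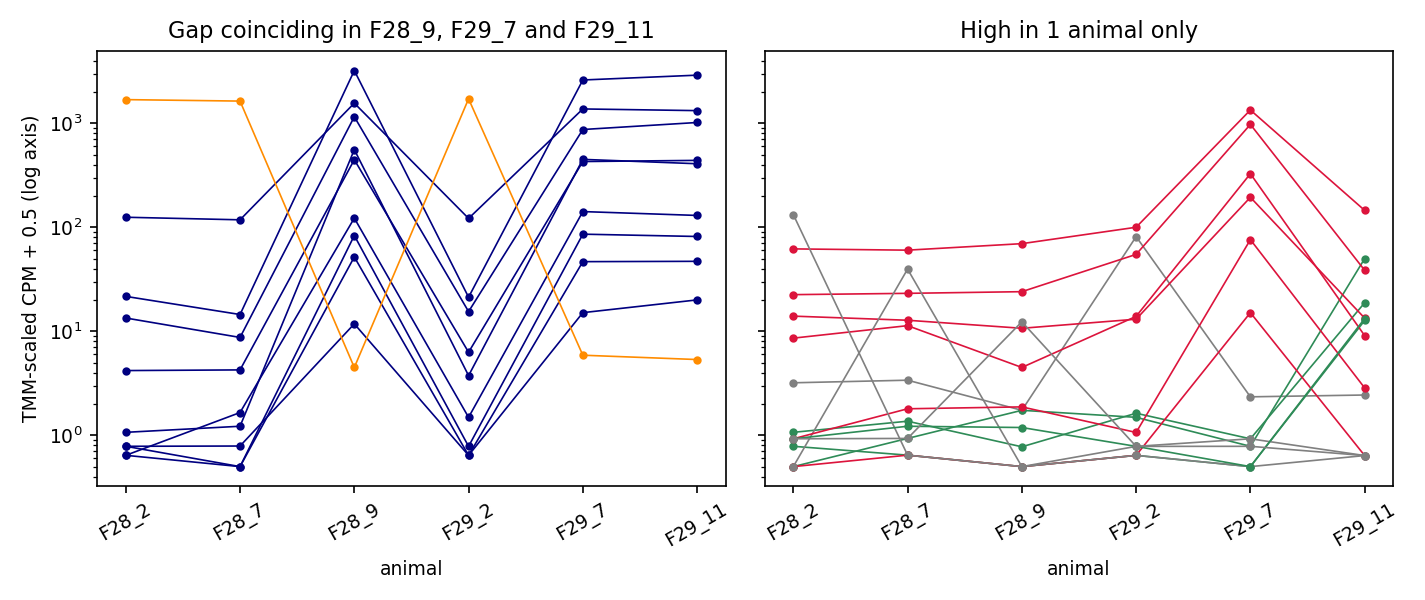
TMM-scaled CPM + 0.5 (vertical log axis) in the 6 animals (horizontal axis), 1 line per gene. Left, the 9 genes high in F28_9, F29_7 and F29_11 (blue) and ENSOCUG00000032540 with the opposite pattern (orange); right, the 14 genes high in 1 animal, with red for the 6 high in F29_7, green for the 4 high in F29_11 and grey for the others.

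These divisions recurred when the same animals were sequenced again. F28_2 and F28_9, both repeated in run 2, lay on different sides of the gap for 19 genes in run 1, and the order was the same in run 2 for 19 of them. F28_2 and F28_7, both repeated in run 3, differed for 14 genes, and the order was the same in run 3 for 14 of them. The difference was at least 4-fold in the repeat for all of these genes. The 19 genes include the 9 genes high in F28_9, F29_7 and F29_11 and ENSOCUG00000032540. These divided the libraries together, in the same or the opposite direction, so that the 19 are not separate observations. The repeat libraries come from the same animals and are not further replicates.

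Over all 54 libraries ENSOCUG00000029112 ranged from 14 to 144.1 CPM in 22 animals and from 2259 to 11930 CPM in the other 23. These ranges mix runs, and the repeat libraries lay above the run 1 libraries of the same animals. F28_2 was at 21.16 CPM in run 1 and 144.1 CPM in run 2, and F28_9 at 3213 and 11910 CPM. No animal with several libraries was on both sides. The high animals numbered 2 of 3 at F27, 1 of 3 at F28, 2 of 3 at F29, 0 of 6 at T31 and 3 of 3 at T35, so that the division was present within most time points.

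Of the 14 genes high in 1 animal, 6 were high in F29_7 and 4 in F29_11, and each of the other 4 animals had 1. ENSOCUG00000003905 was at 1341 CPM in F29_7, at 99.6 and 145.0 CPM in F29_2 and F29_11, and between 59.8 and 69.1 CPM in the F28 animals. ENSOCUG00000008439 was at 974.6 CPM in F29_7, at 54.4 and 38.1 CPM in the other F29 animals, and between 22.01 and 23.5 CPM at F28. Their log2 fold changes between the days, 3.05 ± 1.02 and 3.96 ± 1.45 (SE), had an edgeR adjusted p of 0.999 each, and F29_7 was the highest of the 6 animals for both. At T31 in run 1 these genes ranged from 191.8 to 1599 CPM and from 35.1 to 1142 CPM.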

How the data were processed

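Lung RNA of 54 libraries was measured by 3' end sequencing (QuantSeq), from the right lung except at the earliest fetal days (F20 and F23), where whole lungs were used. The deposited values are raw read counts per Ensembl gene, made by the authors with FastQC, STAR and HTSeq on OryCun2.0, per the labels' processing notes; tool versions are not given in the sources used here. All 29587 genes of the table were read, and 0 columns were left unmapped. The members and the lists were chosen with earlier results of these data known. Pups came from different dams.

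Genes reaching 0.5 CPM in 3 or more libraries of a fit were kept. The 18 libraries of run 1 (3 each of F25, F27, F28, F29, T31 and T35) were fitted with edgeR 4.0.16 (robust quasi-likelihood, TMM) in R 4.3.3, with Benjamini-Hochberg adjustment over all genes tested. SE was the absolute log2 fold change divided by the square root of F. Intervals came from limma 3.58.1 (voom), and DESeq2 1.42.0 was an alternative. Mean log2 CPM used a prior count of 2. The scripts were tested on simulated data.

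Of the 29587 identifiers, 0 were found in the RefSeq gene table given (38822 genes, assembly mOryCun1.1), so that 24 lists of gene symbols were not used. Where no symbol was given, at most 2 identifiers that rose and 2 that fell were to be named by fold change; genes with a gap between animals were named after their values were seen. Figures were drawn with matplotlib 3.10.9.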

Additional observations from a re-analysis of the deposited data

How the results depend on the processing

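The count of 1 called gene became 4 with the 6 libraries alone (7 past the adjusted p at any fold), 3 with DESeq2 (all higher, ENSOCUG00000007315 included), and 0 on total counts alone, with limma-voom and with edgeR's glmTreat against a 1.5-fold change; at an unadjusted p under 0.05 the last 3 gave 690, 681 and 211 genes. Leaving out 1 animal gave 0 to 2 calls, at either threshold. Without F28_2, F29_2, F29_7 or F29_11 the count was 0 (edgeR, 579, 663, 462 and 580 genes at an unadjusted p under 0.05), and without F28_7 it was 2. Without F28_9 it was 1, a lower gene that was not called with all 18 libraries. In the 12 fetal libraries, chosen after seeing the data, 2 genes passed the adjusted p and 1 was called. An unadjusted edgeR p under 0.05 was met by 856 of 14130 genes there and by 966 of 13230 with the 6 libraries alone. In the fit over 18 libraries it was met by 640 of 14600, so that this number moved with the libraries fitted. RLE scaling, 36 animals with the run in the model, no filter and a filter of 10 counts each gave 1, the same gene.

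With the replicate block over F27, F28 and F29 libraries, 2 genes were called, 1 in each direction, and ENSOCUG00000007315 was not (log2 fold change 1.4, edgeR adjusted p = 0.533). F28 and F29 share only the numbers 2 and 7, whose deviations correlated at 0.036 and 0.005. Pairs with different numbers lay between -0.066 and 0.058, so that these correlations cannot decide on a pairing. No pairing was assumed, since the pups came from different dams. Over all alternatives its adjusted p ranged from 1.87e-05 (DESeq2) to 0.533 (edgeR with the replicate block). The mean shift of the genes lower at T31 was -0.208 with the genes called between T35 and F25, and lay between -0.458 and -0.322 when 1 animal was left out; that of the higher genes lay between 0.226 and 0.368. Other alternatives for these shifts, all chosen after seeing the data, moved them by less than 1 SD. The causes were not tested. The gene list counts were not run, since no identifier matched a symbol. Groups of 3 animals limit every comparison, and the interval of every gene under 1 CPM reached past 2-fold.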
